A study of Mus musculus with 4 samples.

Results

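The genes described here encode immunoglobulin chains, the proteins of antibodies, and the joining chain that links antibody units into polymers. They are the heavy-chain genes Ighm, Igha and Ighg3, the joining-chain gene Jchain and 6 variable segments of the kappa light chain, Igkv6-20, Igkv5-43, Igkv19-93, Igkv10-96, Igkv9-120 and Igkv4-91, together 10 of the 19938 genes measured by a probe set with exactly 1 gene symbol. The members were chosen on the genotype difference in these same arrays, in which all of them were lower, so that difference is given below as a description and without a test. The series holds 4 Affymetrix whole-transcript arrays, 2 of haematopoietic stem cells from mice labelled Hif1a-/- and 2 from WT mice, numbered 1 and 2 in each genotype. Hif1a codes for a subunit of the hypoxia-inducible transcription factor HIF-1. All mice were C57BL/6 animals aged 8 weeks. Their bone marrow was sorted for cells without lineage markers that carry c-Kit and Sca-1, which takes in multipotent progenitors along with stem cells. The labels call the arrays biological replicates but do not say how Hif1a was deleted, in which cells, or whether mice were pooled. All values are log2 signals on the authors' RMA scale, and a difference is the mean of the arrays labelled Hif1a-/- minus the mean of the WT arrays.

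An antibody is built of heavy and light chains, each with a variable segment that binds antigen and a constant region. The variable exon is joined by recombination of segments in developing B cells, and the surrogate light chain stands in until a kappa or lambda chain is made. Assembled immunoglobulin is made in B cells and in bulk by plasma cells, which also make the joining chain for IgM and IgA polymers. The sort removes cells that carry lineage markers. In bulk RNA, fewer cells of a type and less RNA per cell cannot be told apart.

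Jchain was the only one of the 10 members with a promoter window in the RefSeq-derived table (GRCm38.p6), and it is shown because its signal differed along with those of the heavy and light chains that it joins or accompanies. The window covers 250 bases before and 50 after the gene's start, at chr5:88527848-88528147 on the minus strand, 5′ to 3′. Capitals mark matches to ACGTG or GCGTG, the core letters of hypoxia response elements, and to the E-box CANNTG, each searched on both strands.
Jchain promoter: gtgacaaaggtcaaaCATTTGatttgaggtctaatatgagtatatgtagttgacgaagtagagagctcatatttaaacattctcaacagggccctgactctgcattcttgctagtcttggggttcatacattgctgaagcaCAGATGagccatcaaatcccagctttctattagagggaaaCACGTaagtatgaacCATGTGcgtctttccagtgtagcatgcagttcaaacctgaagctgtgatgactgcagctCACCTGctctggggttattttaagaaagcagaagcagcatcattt
The window held 1 match to ACGTG, on the reverse strand, and 0 to GCGTG. Of 32851 windows of the same length, 19.6% held ACGTG and 32.4% held GCGTG. There were 4 E-box matches, a motif found in 72.3% of windows, and none of the 4 overlapped the ACGTG match. The octamer ATGCAAAT, known from immunoglobulin promoters, and TATAAA had 0 matches in the window, against 1.74% and 13.6% of all windows.

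Kit, the gene of the sorting marker c-Kit, had log2 signals of 12.37 and 11.32 in arrays 1 and 2 labelled Hif1a-/-, against 12.57 and 11.51 in WT arrays 1 and 2. All 10 measured genes of the stem and progenitor list were lower in the mean in the arrays labelled Hif1a-/-. Over all genes, 9843 of 19938 were. Within both array numbers 7 of the 10 were lower, and the median difference was −0.225 log2 units. Under quantile normalization and under cyclic loess 9 were lower and 1 higher. Of the 10, 0 had an adjusted p under 0.05 between the genotypes in limma, and 0 had an unadjusted p under 0.05. Gata2 and Cd34, the list's genes with the smallest p, differed by −0.21 (SE 0.24) and −0.78 (SE 0.90). Hif1a itself had 10.58 and 10.64 in the arrays labelled Hif1a-/- and 10.37 and 10.99 in the WT arrays. That probe set can lie outside the deleted part of the gene, so it does not check the labels, and every direction below follows the labels. Medians over all genes lay between 8.54 and 8.56 in all 4 arrays, and the 5th percentile between 5.72 and 5.79. The number of arrays limits the precision of every value.

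In the probe sets used, signal of the IgM heavy-chain gene and of the joining chain separated the genotypes with little spread. Ighm, which encodes the constant region of IgM, the first isotype that a B cell makes, had log2 signals of 9.99 and 10.21 in the arrays labelled Hif1a-/- and 11.50 and 11.53 in the WT arrays. The groups did not overlap, and the gap was far larger than the spread within either genotype. The difference was −1.41 log2 units (SE 0.13), or 2.66-fold lower in the arrays labelled Hif1a-/-. Jchain had 10.35 and 10.88 in the arrays labelled Hif1a-/- and 11.90 and 12.22 in the WT arrays, again without overlap. Its difference was −1.45 (SE 0.24), or 2.73-fold lower. Both genes differed by similar amounts within each number, Ighm by −1.51 (number 1) and −1.32 (number 2) and Jchain by −1.55 and −1.34.

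The genes of the switched isotypes were lower in the mean with much more spread between arrays. Igha, the heavy chain of the mucosal antibody IgA, had log2 signals of 9.46 and 11.70 in the arrays labelled Hif1a-/- and 11.42 and 12.94 in the WT arrays. It was the only member whose groups overlapped, since array 2 labelled Hif1a-/- lay above WT array 1. The difference was −1.60 (SE 0.96), which was −1.96 between the arrays numbered 1 and −1.25 between those numbered 2. Ighg3, the heavy chain of IgG3, had 8.02 and 6.19 in the arrays labelled Hif1a-/- and 8.34 and 8.38 in the WT arrays. Its low value came from array 2 labelled Hif1a-/-, and the gap was −0.32 in number 1 against −2.19 in number 2. The 5th percentile of all genes in that array was 5.79, and Ighg3 was the only member among the dimmest 40% of genes. The mean difference of Ighg3 was −1.26 (SE 0.66).

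**Figure D1:**
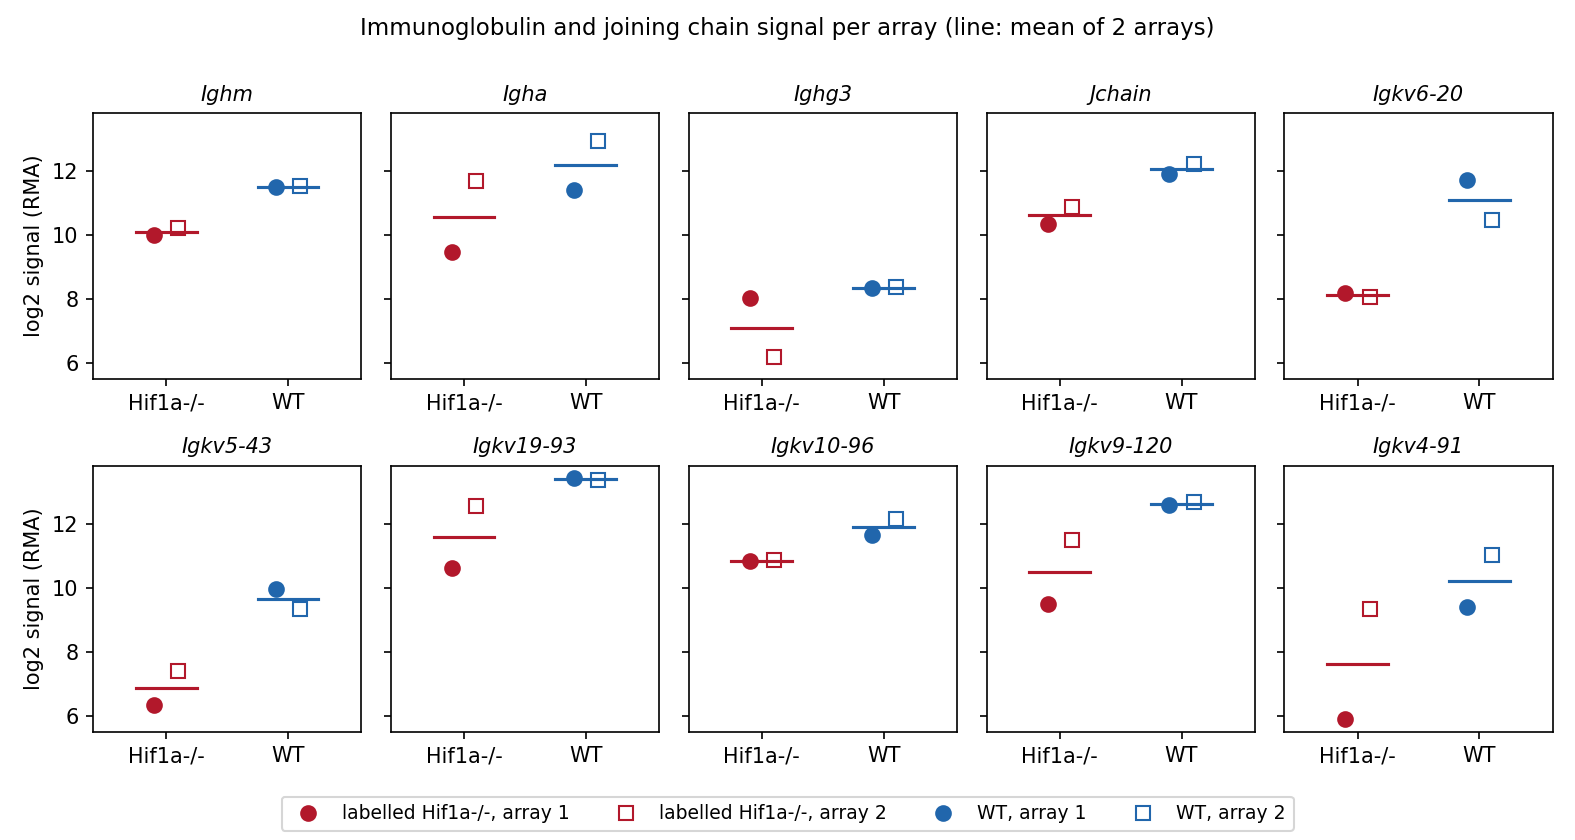
Log2 signal (RMA, vertical axis) of the 10 genes in each array, with the arrays labelled Hif1a-/- on the left and the WT arrays on the right of each panel, filled circles for array 1, open squares for array 2 and a line at the mean of 2 arrays. All means are lower in the arrays labelled Hif1a-/-, and only Igha has overlapping groups.

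Among the kappa variable segments, 2 had large gaps in both array numbers. Igkv6-20 had log2 signals of 8.19 and 8.07 in the arrays labelled Hif1a-/- and 11.71 and 10.46 in the WT arrays. The difference of −2.95 (SE 0.46), or 7.74-fold lower, was the most negative of all 19938 genes. Igkv5-43 had 6.33 and 7.41 in the arrays labelled Hif1a-/- and 9.96 and 9.32 in the WT arrays. Its difference was −2.77 (SE 0.46), or 6.84-fold lower. The 6.33 is a dim value, in an array where the 5th percentile of all genes was 5.77. Igkv6-20 differed by −3.52 in number 1 and −2.39 in number 2, and Igkv5-43 by −3.63 and −1.91 in the same numbers. The groups did not overlap for either segment, and for both the WT array numbered 1 was the highest of the 4.

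Igkv19-93, Igkv9-120 and Igkv4-91 shared another layout, in which array 1 labelled Hif1a-/- stood far below the other 3. Igkv19-93 had log2 signals of 10.61 and 12.54 in the arrays labelled Hif1a-/- and 13.43 and 13.37 in the WT arrays, a difference of −1.82 (SE 0.69). Igkv9-120 had 9.49 and 11.49 in the arrays labelled Hif1a-/- and 12.58 and 12.68 in the WT arrays, a difference of −2.14 (SE 0.71). Igkv4-91 had 5.88 and 9.32 in the arrays labelled Hif1a-/- and 9.38 and 11.04 in the WT arrays, a difference of −2.61 (SE 1.35). The 5.88 of Igkv4-91 lies close to the 5th percentile of all genes in that array, 5.77. The groups of Igkv4-91 nearly touched, at 9.32 in array 2 labelled Hif1a-/- and 9.38 in WT array 1, whereas those of Igkv19-93 and Igkv9-120 were further apart. The gap in number 1 was −2.82 for Igkv19-93, −3.08 for Igkv9-120 and −3.502 for Igkv4-91, and in number 2 it was −0.83, −1.20 and −1.72. Igkv10-96 had the smallest gap of the 10 members, with 10.82 and 10.88 in the arrays labelled Hif1a-/- and 11.64 and 12.14 in the WT arrays. Its difference of −1.04 (SE 0.21), or 2.05-fold lower, was larger than the spread within either genotype, with −0.82 in number 1 and −1.26 in number 2.

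All 10 members were lower within both array numbers, and the size differed between the numbers. Of the 10, 9 had groups that did not overlap, beside 8.33% of all genes in that direction; the members were chosen on this contrast, so nothing is read from that count. The median of the 10 differences was −1.71 log2 units over all 4 arrays, −2.39 between arrays numbered 1 and −1.33 between arrays numbered 2, beside 0.00 over all genes. The gap was larger in number 1 for 8 members, all but Ighg3 and Igkv10-96. With 1 array per genotype in each number, this inequality has no replicate and was not tested. The arrays labelled Hif1a-/- also had the larger SD for 8 of 10 members, all but Igkv6-20 and Igkv10-96. Leaving out array 1 labelled Hif1a-/- gave a median of −1.16, and leaving out array 2 labelled Hif1a-/- gave −2.76. All 109 member differences recomputed under the alternatives were negative. The choice of members on this contrast largely fixed that sign in advance, so it is no support.

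**Figure D2:**
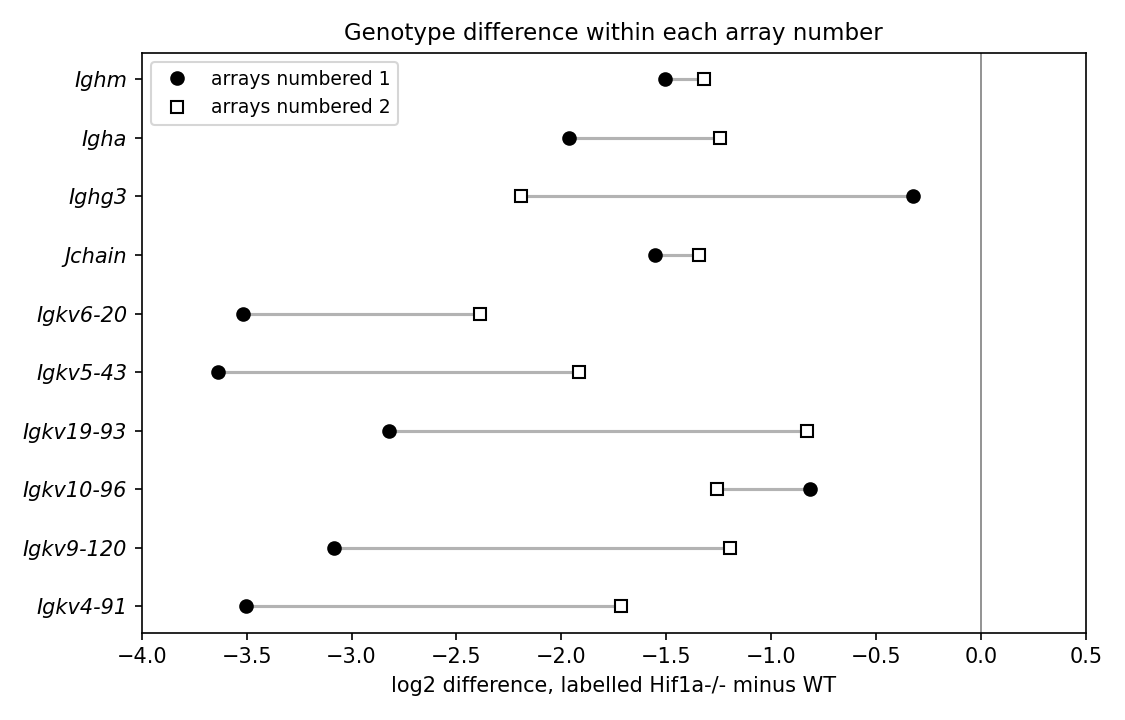
Log2 difference, arrays labelled Hif1a-/- minus WT (horizontal axis), of each gene within arrays numbered 1 (filled circles) and within arrays numbered 2 (open squares). All points lie below 0, and 8 of the 10 genes have the larger gap in number 1.

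The 6 kappa segments are named here in their order along chromosome 6 of the reference, Igkv9-120, Igkv10-96, Igkv19-93, Igkv4-91, Igkv5-43 and Igkv6-20, which ends nearest the joining segments and the constant region. Along that order the differences were −2.14, −1.04, −1.82, −2.61, −2.77 and −2.95 log2 units. The last 3 had the larger gaps, but the SE of Igkv4-91 alone, 1.35, spans most of that range, so no order is read from these values. Variable segments resemble each other, and a probe set can take up RNA of related segments. The symbols of Ighg3, Igkv5-43, Igkv19-93 and Igkv9-120 rest on 1 sequence record each in the platform annotation. That annotation does not say whether a heavy-chain probe set lies in a constant or a variable exon.

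Other probe sets of the same genes had the same direction and unequal sizes. The 2 further Ighm probe sets differed by −0.98 and −3.04 log2 units, against −1.41 for the one used. In a fit of all probe sets their SEs were 0.28 and 0.81, against 0.14 for the one used. Both the size and the spread for Ighm thus depend strongly on the probe set. The probe set with −3.04 had 6.60 and 8.45 in the arrays labelled Hif1a-/- and 9.94 and 11.19 in the WT arrays. A second Igha probe set differed by −1.62, close to the −1.60 of the first. For Igkv19-93 the second probe set gave −0.99 against −1.82, and the array that stood low changed, with 8.99 and 8.77 in the arrays labelled Hif1a-/- and 9.39 and 10.36 in the WT arrays.

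Probe sets that the annotation gives several symbols, and that therefore name no single gene, were lower as well, some of them listing Igkc or lambda genes. The 16 such probe sets share genes, loci and this contrast with the members and are likewise described without a test. All 16 were lower in the mean, with a median of −1.21 log2 units and a range of −1.83 to −0.24. Of these, 14 had groups that did not overlap, beside 8.31% of all 35556 probe sets in that direction. The 4 that list Igkc, the kappa constant region, all list kappa variable segments too, so they do not measure Igkc alone. They lay close together at −1.83 to −1.45, and all 4 were lower in both numbers. One of them, which lists 8 symbols, had 11.18 and 11.68 in the arrays labelled Hif1a-/- and 12.71 and 13.09 in the WT arrays. The 2 probe sets that list Iglc1, a lambda constant region, together with Iglv1 and Iglv2 differed by −1.45 and −1.43.

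Single probe sets departed from this layout. The probe set of Ighv3-6 and Igha differed by −0.24 with overlapping groups, with 7.69 and 8.66 in the arrays labelled Hif1a-/- and 7.86 and 8.97 in the WT arrays. The probe set of Igkv6-14 and Igkv6-15 had 10.36 and 10.34 in the arrays labelled Hif1a-/- and 10.20 and 12.97 in the WT arrays, so that WT array 2 alone stood high. The probe set of Igkv1-133 and Igkv1-135 had 13.10 and 11.63 in the arrays labelled Hif1a-/- and 13.19 and 13.10 in the WT arrays, so that array 2 labelled Hif1a-/- alone stood low. Over all 32 immunoglobulin and joining-chain probe sets, 32 were lower in the mean and 31 within both numbers, the exception being that of Igkv6-14 and Igkv6-15, at 0.16 in number 1.

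**Figure D3:**
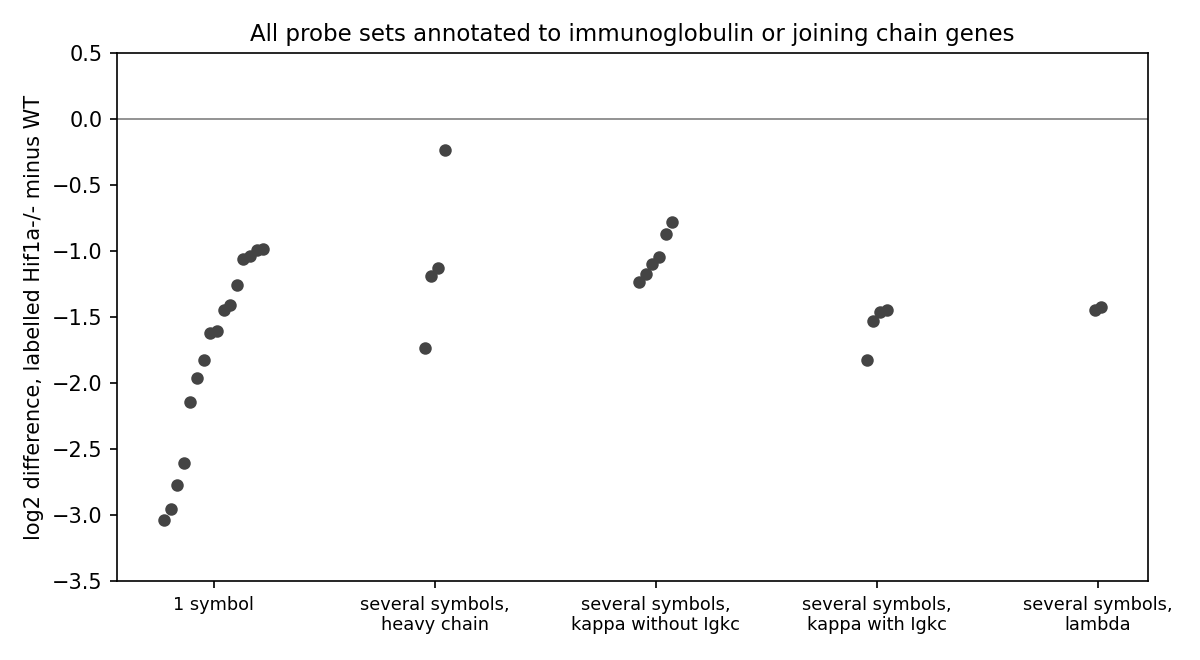
Log2 difference, arrays labelled Hif1a-/- minus WT (vertical axis), of each of the 32 probe sets annotated to immunoglobulin or joining chain genes, grouped by whether the annotation gives 1 symbol or several. All points lie below 0, and the 4 probe sets with Igkc lie between −1.83 and −1.45.

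Among non-members, 2 immunoglobulin genes had a probe set of 1 symbol. Igkv4-55, a kappa segment, had log2 signals of 7.08 and 8.94 in the arrays labelled Hif1a-/- and 8.89 and 11.05 in the WT arrays, a difference of −1.97 (SE 1.01). Igkv8-30 had 7.09 and 7.81 in the arrays labelled Hif1a-/- and 7.17 and 9.85 in the WT arrays, a difference of −1.06 (SE 0.99). Both pairs of groups overlapped, and neither gene passed in limma (adjusted p = 0.9998 each). Igkv4-55 differed by −1.82 in number 1 and −2.11 in number 2, and Igkv8-30 by −0.08 and −2.05. Without WT array 2 the difference of Igkv8-30 turned to 0.28 and that of Igkv4-55 was −0.89. Of the 15 most negative differences over all genes, 12 belonged to immunoglobulin or joining-chain genes, these 2 and the 10 members. The 10 members were chosen on this difference, so nothing is read from that count.

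Genes of early B-cell development lay on the opposite side of 0 from the immunoglobulin genes. All 14 measured genes of the early B lineage list were higher in the mean in the arrays labelled Hif1a-/-, and their median difference was 0.87 log2 units (number 1, 0.95 and number 2, 0.57). Within number 2 Cd79b and Il7r were lower, at −0.17 and −0.07, and the rest of the list was higher. In the mean all 14 were also higher under each of 3 other scalings of the same arrays, quantile normalization, cyclic loess and median centring. Rag1, an enzyme subunit that cuts DNA for antigen-receptor recombination, had 10.31 and 10.41 in the arrays labelled Hif1a-/- and 9.05 and 9.19 in the WT arrays, a difference of 1.24 (SE 0.12). Vpreb1, a part of the surrogate light chain, had 9.03 and 9.01 in the arrays labelled Hif1a-/- and 8.28 and 8.05 in the WT arrays, a difference of 0.85 (SE 0.13). Of the 14, 9 had groups that did not overlap on the higher side, where 16.1% of all genes did so. At an unadjusted p under 0.05 there were 6, all higher, beside 0.547% of all genes in that direction, and 0 passed after adjustment over all genes in limma, where the share called was 0%. The 6 became 4 without WT array 2 and 11 without array 2 labelled Hif1a-/-. This list was put together with earlier results of these arrays known.

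Genes that mark plasma cells had small differences between the genotypes. The immunoglobulin genes were chosen on this contrast, so the sizes of their differences are not compared with those of this list. Of 14 measured genes, 11 were lower in the mean in the arrays labelled Hif1a-/-, as under each of the 3 other scalings, and the median difference was −0.19 log2 units (number 1, −0.05 and number 2, −0.22). No gene of the list differed by more than 0.59 in either direction. The median signal of the list was 9.04 and 9.13 in the arrays labelled Hif1a-/- and 8.93 and 9.49 in the WT arrays. Among defining genes, chosen after their values were seen, were the transcription factor genes Prdm1 and Xbp1 at −0.19 (SE 0.31 and 0.44) and the surface proteoglycan gene Sdc1 at −0.22 (SE 0.39). Tnfrsf13b and Tnfrsf17, receptors of B-cell survival factors, differed by −0.38 (SE 0.15) and −0.32 (SE 0.16). The endoplasmic reticulum gene Derl3, chosen after its values were seen, had 8.81 and 9.01 in the arrays labelled Hif1a-/- and 9.05 and 9.75 in the WT arrays. These were the 3 genes of 14 whose groups did not overlap on the lower side, beside 8.33% of all genes. On the higher side, where 16.1% of all genes did not overlap, 1 of 14 did not, the transcriptional coactivator gene Pou2af1 at 0.43 (SE 0.22), and the chaperone-like gene Mzb1 at 0.35 (SE 0.28) with overlap. None of the 14 had an unadjusted p under 0.05 in limma, beside 0.181% of all genes on the lower side, and 0 passed after adjustment. Cyclic loess and median centring each gave 1 of 14 at that unadjusted threshold. Over all genes the split at an unadjusted p under 0.05 was 109 higher and 36 lower, and it became 49 and 61 under quantile normalization, 68 and 58 under cyclic loess and 39 and 73 under median centring.

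The machinery that folds and exports antibody chains and the genes of mature B cells gave no call either. Of 21 folding and secretion genes 14 were lower and 7 higher in the mean, with a median of −0.02 log2 units. That split became 9 lower and 12 higher under both quantile normalization and cyclic loess. Under median centring it became 18 lower and 3 higher, where 14376 of all 19938 genes were lower. Dnajb9 and Edem2, which act in protein quality control of the endoplasmic reticulum, differed by −0.24 (SE 0.15) and −0.28 (SE 0.18), whereas the chaperone gene Hsp90b1 and the translocon gene Sec61b were at 0.20 (SE 0.41) and 0.14 (SE 0.45). In the mature B-cell list 18 of 21 genes were higher in the mean (14 to 17 under the other scalings), with a median of 0.21. The inhibitory receptor gene Cd22 was at 0.48 (SE 0.19) and the transcription factor gene Spib at 0.72 (SE 0.29), whereas Fcmr, which encodes a receptor for IgM, was at −0.11 (SE 0.14) and Fcrla at −0.27 (SE 0.62). In either list 0 genes had an unadjusted p under 0.05 in limma.

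**Figure D4:**
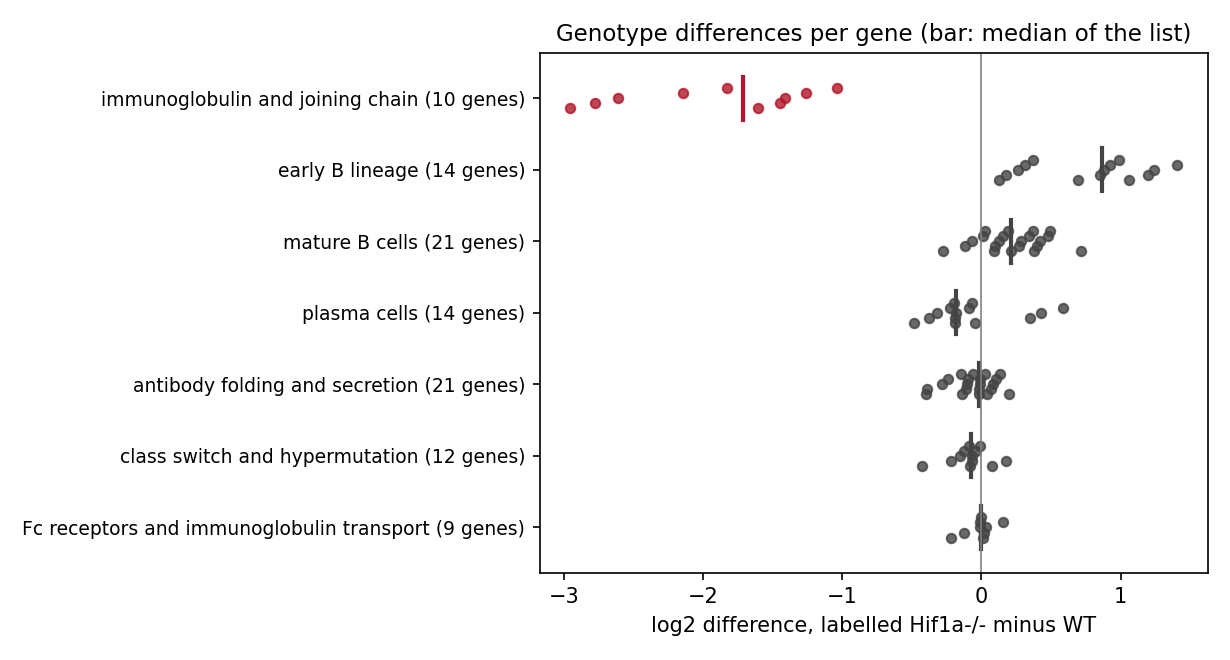
Log2 difference, arrays labelled Hif1a-/- minus WT (horizontal axis), of each gene of the immunoglobulin and joining chain group and of 6 gene lists, with a vertical bar at the median of each. The immunoglobulin group lies between −2.95 and −1.04, the early B lineage list has a median of 0.87 and the plasma cell list one of −0.19.

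Antibody-modifying enzymes and receptors that bind antibody constant regions had medians near 0. The class switch and hypermutation list had 12 measured genes, 10 lower and 2 higher in the mean, with a median of −0.08 log2 units. Ung, a glycosylase that removes uracil from DNA, was at −0.22 (SE 0.18), the DNA repair gene Xrcc4 at −0.16 (SE 0.16), the DNA ligase gene Lig4 at 0.18 (SE 0.11) and Apex2 at 0.08 (SE 0.18), which turned to −0.010 under median centring. The list of Fc receptors and immunoglobulin transport had 9 measured genes with a median of −0.00, 5 lower and 4 higher, or 7 and 2 under cyclic loess and 8 and 1 under median centring. Its lower genes with the smallest p were Fcgr3 at −0.22 (SE 1.03) and Fcgr2b at −0.12 (SE 0.95), both receptors for IgG. On the higher side they were Fcamr at 0.03 (SE 0.11), which was negative under all 3 other scalings, and the Fc receptor signalling chain gene Fcer1g at 0.16 (SE 0.54). None of these genes had an unadjusted p under 0.05 in limma.

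The lists of other cell types gave no genotype call either. The neutrophil granule list had a median difference of 0.34 log2 units, but it was −0.22 in number 1 and 0.91 in number 2, with the granule genes Camp and Ltf at 0.76 (SE 1.16) and 0.73 (SE 1.42) and Mpo and Elane at −0.21 (SE 0.16) and −0.41 (SE 0.37). The mast cell and basophil list had a median of 0.02 (number 1, 0.23 and number 2, −0.14), which turned to −0.066 under median centring, with the protease gene Prss34 at 0.79 (SE 0.93), the IgE receptor gene Ms4a2 at 0.37 (SE 0.98), Gata1 at −0.37 (SE 0.26) and Mcpt4 at −0.35 (SE 0.37). In the plasmacytoid dendritic cell list Ly6d and Bst2 were at 0.18 (SE 0.34) and 0.13 (SE 0.26), and Ccr9 and Tcf4 at −0.19 (SE 0.22) and −0.14 (SE 0.49). In these 3 lists 0 genes had an unadjusted p under 0.05 in limma.

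Igha and Igkv4-91 also differed between the array numbers, a contrast that the choice of members did not use. In a limma fit with genotype as a term, 2 of the 10 members passed after adjustment over all genes, beside 5.56% of all genes in either direction. Igha was higher by 1.88 log2 units in arrays numbered 2 than in arrays numbered 1 (SE 0.20, adjusted p = 0.0125 in limma), with 2.24 in the arrays labelled Hif1a-/- and 1.52 in the WT arrays. Igkv4-91 was higher by 2.54 (SE 0.41, adjusted p = 0.0340 in limma), with 3.44 in the arrays labelled Hif1a-/- and 1.65 in the WT arrays. At an unadjusted p under 0.05 there were 3 members, all higher in number 2, beside 8.4% of all genes in that direction. The third was Jchain, at 0.43 (SE 0.14, adjusted p = 0.182 in limma). Over the 10 members 8 were higher in number 2, with a median of 0.35. The sign of each of the 8 members that did not pass turned when at least 1 array was left out. Those fits had no genotype term, so the members' genotype gap enters them and nothing is read from the turn. Within the genotypes, Ighm, Jchain, Igkv6-20, Igkv10-96 and Igkv9-120 had the same sign in both. Ighg3, Igkv5-43 and Igkv19-93 had opposite signs. With its dimmest probe set Ighm also passed, at 1.55 (adjusted p = 0.0181 in limma). Of the other immunoglobulin genes, Igkv4-55 passed at 2.01 (SE 0.14, adjusted p = 0.00505 in limma) and Igkv8-30 was at 1.70 (SE 0.45, adjusted p = 0.119 in limma). Without the genotype term, 0 members passed (adjusted p = 0.211 for Igha and 0.316 for Igkv4-91 in limma). The same fit on 3 arrays called 0 members once array 1 labelled Hif1a-/- was left out and 3 once array 2 labelled Hif1a-/- was, and it called 4 when WT array 1 was left out. With WT array 2 left out it called 1, Ighg3, which was lower in number 2.

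**Figure D5:**
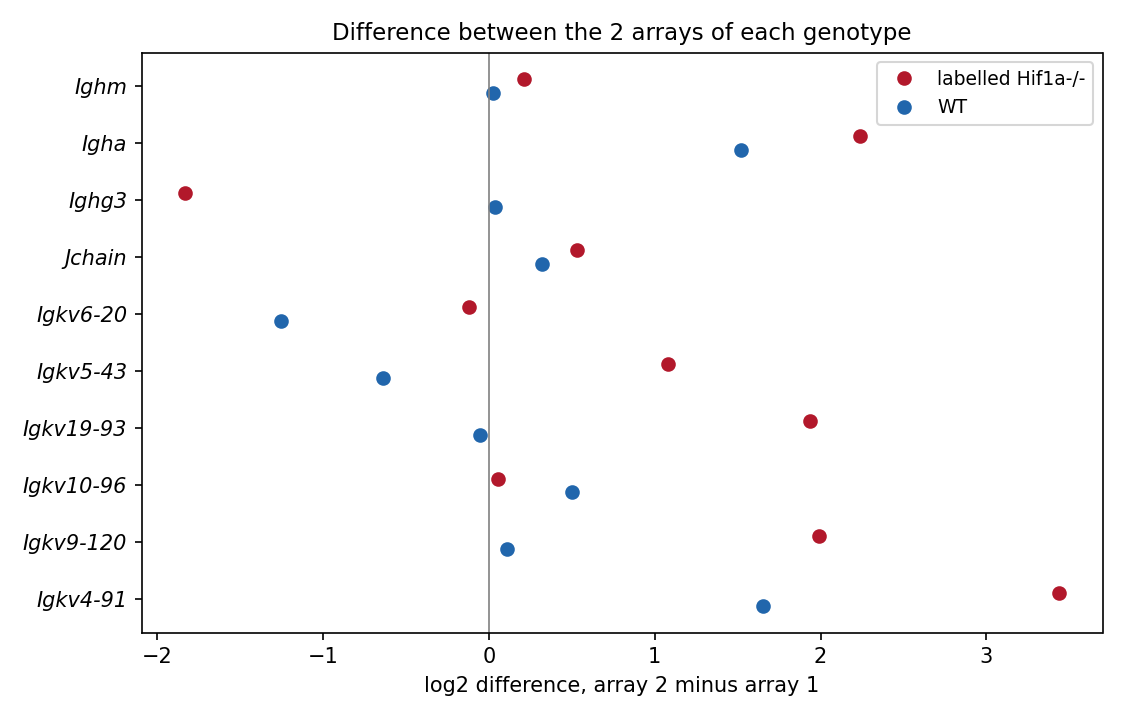
Log2 difference, array 2 minus array 1 (horizontal axis), of each gene in the arrays labelled Hif1a-/- (red) and in the WT arrays (blue). Igha and Igkv4-91 lie clearly above 0 in both genotypes, Igkv5-43 lies on opposite sides of 0 and Ighg3 is low in the arrays labelled Hif1a-/-.

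Genes of the myeloid and stem cell lists differed between the array numbers too. After adjustment over all genes in limma, 7 of 9 neutrophil granule genes, 5 of 8 mast cell and basophil genes and 5 of 10 stem and progenitor genes passed, beside the 5.56% of all genes. The neutrophil granule list was higher in number 2 for 9 of 9 genes, beside 44.6% of all genes, with a median of 2.21 log2 units, and its median signals were 10.79 and 12.84 in arrays 1 and 2 labelled Hif1a-/- and 10.98 and 12.80 in WT arrays 1 and 2. The mast cell and basophil list was higher for 8 of 8 genes, with a median of 1.51. Of the folding and secretion genes 21 of 21 lay higher in number 2 (20 under quantile normalization), by 0.75 in the median, as did 11 of 14 plasma cell genes, by 0.30. In contrast, the stem and progenitor list had a median of −0.95, with 2 of 10 genes higher in number 2, and the early B lineage list one of −0.37. The plasmacytoid dendritic cell list, a cell type that can hold immunoglobulin heavy-chain RNA, had a median of −0.39 between the numbers and −0.00 between the genotypes, the second turning to 0.021 under quantile normalization and 0.060 under cyclic loess. The part of these lists in the members' values was not tested.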

How the data were processed

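Per the submitters' processing notes, the authors made the deposited log2 signals with RMA in Affymetrix Expression Console 1.1, a method that subtracts background, equalises the arrays' distributions and gives 1 value per probe set. The log base was taken from the values, between 3.08 and 14.88. The genome build was not given in the sources used here. Arrays were grouped by title, and 0 columns belonged to other samples. Of 35556 probe sets, 21789 had 1 gene symbol in the platform annotation, 1621 several, and 12146 were unnamed here. The probe set with the highest mean per gene was used, which left 19938 genes. All 10 members were matched to the reference by gene ID.

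Genotypes and array numbers were compared across all genes with limma 3.58.1 in R 4.3.3 (moderated by eBayes, two-sided, Benjamini-Hochberg over all genes, threshold 0.05), without a filter on dim genes; the steps were also tested on simulated data. Of 134 list entries 125 were measured. Lists and members were chosen with earlier results of these data known. The text names all members, other immunoglobulin genes (Ighmbp2, which encodes none, was left out), Hif1a, up to 2 genes per direction with the smallest unadjusted p in each list, and the 5 genes nearest in pattern. Alternatives were a block for the replicate number, leaving out single arrays, quantile normalization, cyclic loess, median centring, the dimmest 40% of genes left out, averaged or lowest probe sets, eBayes with trend and robust, no genotype term and, added after seeing the data, every probe set tested. p-values measure only the spread between these arrays.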

Additional observations from a re-analysis of the deposited data

How the results depend on the processing

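With 2 arrays per genotype, no gene passed between the genotypes in limma under any of the 13 alternatives, while 145 had an unadjusted p under 0.05. That count was 57 to 622 with single arrays left out, 39 without the dimmest 40% of genes (fewer genes tested) and 339 with trend and robust. It was 692 of 35556 with every probe set tested, an alternative chosen after seeing the data. All 109 recomputed member differences were negative, a sign largely fixed by the choice of members on this contrast. The members' median of −1.71 lay between −2.76 and −1.16 with arrays left out, and the early B count of 6 between 4 and 11. The plasma cell count of 0 was 0 to 2 with arrays left out and 1 under cyclic loess and median centring. The labels do not say that equal numbers share a batch. With the replicate number as a block, 478 genes had an unadjusted p under 0.05 and 0 passed, and the counts of list genes at that threshold were 3 for plasma cells, 3 for mature B cells (Cd22 and Spib among them), 2 each for the neutrophil and stem cell lists and 1 for mast cells (Prss34), against 0 in each without the block. Those of the other 4 lists without calls stayed at 0 with it, and the early B count was 9 with it against 6 without. With arrays left out, the counts were 0 to 3 for mast cells, 0 to 2 for mature B cells, 0 for Fc receptors and 0 to 1 for the stem cell, folding, class switch, neutrophil and plasmacytoid dendritic lists, and mature B cells had 2 with trend and robust. Deviations from the group means correlated at 0.67 between arrays of the same number, over genes, which are not replicates. Between array numbers, the 2 members called became 1 under median centring, 1 with trend and robust, 0 without the genotype term and 0 to 4 with arrays left out. Igkv4-91 was the member lost under median centring and with trend and robust (adjusted p = 0.0703 and 0.0745 in limma). The Igkv4-55 call was lost without the genotype term (adjusted p = 0.267 in limma) and in 3 of the 4 fits with an array left out, and Igkv8-30 passed under quantile normalization (adjusted p = 0.0262 in limma) and in 2 of those 4. The members' median of 0.35 lay between −0.48 and 1.62 with arrays left out, a fit in which number and genotype are partly confounded. The differences between numbers ranged over −0.63 to 0.87 for Ighm, −1.99 to 0.20 for Ighg3, −0.35 to 1.20 for Jchain, −2.44 to 1.07 for Igkv6-20, −1.60 to 2.04 for Igkv5-43, −0.47 to 2.35 for Igkv19-93, −0.35 to 0.91 for Igkv10-96 and −0.49 to 2.59 for Igkv9-120. The 1108 genes called in all became 1777 under quantile normalization, 440 under median centring and 319 to 4661 with arrays left out. Some differences with no call turned sign. With arrays left out, the genotype differences ranged over −2.40 to 0.28 for Igkv8-30, −0.38 to 0.23 for Hif1a, −0.73 to 0.34 for Kit, −0.45 to 0.026 for Gata2, −1.98 to 0.41 for Cd34, −0.24 to 0.015 for Fcmr, −1.01 to 0.47 for Fcrla, −0.012 to 0.71 for Mzb1, −0.21 to 0.61 for Hsp90b1, −0.31 to 0.58 for Sec61b, −0.13 to 0.28 for Apex2, −0.42 to 0.73 for Fcer1g, −1.27 to 0.83 for Fcgr3, −1.21 to 0.96 for Fcgr2b, −0.27 to 0.64 for Ly6d, −0.19 to 0.44 for Bst2, −0.42 to 0.031 for Ccr9, −0.67 to 0.39 for Tcf4, −0.69 to 2.21 for Camp, −1.08 to 2.53 for Ltf, −0.82 to 0.00 for Elane, −0.19 to 1.77 for Prss34, −0.69 to 1.42 for Ms4a2 and −0.82 to 0.11 for Mcpt4. Fcamr was at −0.069 under quantile normalization, −0.050 under cyclic loess and −0.053 under median centring. Under cyclic loess Hif1a was at 0.012, under median centring Apex2 was at −0.010, and with the lowest probe set Sec61b was at −0.025. The cause was not tested. The Ighm difference was −3.04 with the lowest and −1.81 with averaged probe sets.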

Other observations

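The median of the members' mean-centred log2 values was −1.50 and −0.33 in arrays 1 and 2 labelled Hif1a-/- and 0.80 and 1.03 in WT arrays 1 and 2, a profile with a root mean square of 1.01. Likeness was measured as the root-mean-square distance between mean-centred log2 values over the 4 arrays. The members themselves lay 0.29 (Igkv19-93) to 1.1 (Ighg3) from the median profile, and 3 of them, Igkv6-20 at 0.89, Igkv4-91 at 1.02 and Ighg3, lay further from it than the nearest genes outside the members. The 5 nearest genes outside the members were Tfec at 0.65, Zfa-ps, B4galt6 and Adck1 at 0.67 each and Rnf125 at 0.69. Tfec, a transcription factor gene of the myeloid lineage, had 9.46 and 10.04 in the arrays labelled Hif1a-/- and 9.96 and 11.15 in the WT arrays, so its groups overlapped. Adck1, a kinase-like gene, had 7.78 and 9.19 in the arrays labelled Hif1a-/- and 8.95 and 11.02 in the WT arrays, also with overlap. These genes were picked for their profile, and no test was made of them.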
